A study of Mus musculus with 2 samples.

Results

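Low-RNA ribosome-rich CD8 cells are barcodes of splenic CD8 T cells that hold few transcripts and a large share of ribosomal protein transcripts. They were selected on measured values in each of 2 droplet single-cell RNA libraries. The criteria were at least 200 detected genes, under 10% mitochondrially encoded UMIs, from 500 to under 2000 UMIs in all (a UMI, or unique molecular identifier, marks 1 captured transcript), at least 30% of UMIs from genes named Rpl or Rps, at least 1 UMI of Cd8a or Cd8b1, at least 1 UMI of Cd3d, Cd3e or Cd3g, and no UMI of the cytotoxic genes Gzma, Gzmb, Gzmk and Klrg1. The rule found 1334 such cells among 21623 barcodes, 106 of 9495 in the CTRL library and 1228 of 12128 in the DHEA library.

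The cells came from spleens of wild-type C57BL/6 mice, from which the CD8 T cells were taken with magnetic beads. DHEA mice had received dehydroepiandrosterone, an androgen precursor used to model polycystic ovary syndrome, under the skin at 40 mg/kg in 20 µL sesame oil each day for 21 days, and CTRL mice the same volume of oil. Cells were pooled, and how many animals went into a library is not stated in the labels. Each group has 1 library, so no difference below has a replicate check, no test was run, and every interval is an exact 95% interval that covers counting error only. The library as a whole had a median of 5430 UMIs per barcode in CTRL and 4049 in DHEA.

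Ribosomal protein genes encode the protein parts of the ribosome, and resting lymphocytes keep a large stock of their messenger RNAs in the cytoplasm. Many of these messages, and those of several elongation factors, begin with an unbroken run of C and T, the 5′ terminal oligopyrimidine tract, through which their translation is held back in quiescent cells and raised when growth signals arrive. A low UMI count in a droplet can belong to a small resting cell, to a cell that has lost RNA, or to a cell captured with low efficiency, and these cannot be told apart from the counts alone.

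The rule counts only Rpl and Rps names, so the translation genes outside those names were read separately. RefSeq start-site windows (GRCm38.p6) of the 6 such genes with the highest level in low-RNA ribosome-rich cells are given to show which carry the C and T run at the annotated start. Each window of 30 bases is centred on the annotated start, and capitals mark the run that holds the start.
Fau: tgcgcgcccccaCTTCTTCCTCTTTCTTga
Rack1: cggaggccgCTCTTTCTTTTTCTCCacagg
Eef1a1: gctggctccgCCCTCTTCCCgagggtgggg
Tpt1: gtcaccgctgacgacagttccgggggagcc
Eef1b2: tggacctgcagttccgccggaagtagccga
Naca: gcaactcgttctcttaaagaggaaacccgg
These windows are chr19:6057932-6057961 (plus strand) for Fau, chr11:48800345-48800374 (plus) for Rack1, chr9:78481710-78481739 (minus) for Eef1a1, chr14:75845241-75845270 (plus) for Tpt1, chr1:63176816-63176845 (plus) for Eef1b2 and chr10:128035331-128035360 (plus) for Naca. The run was 16 bases long in Fau, which encodes a ubiquitin-like protein fused to ribosomal protein S30, 16 in Rack1, a scaffold protein on the small subunit, and 10 in Eef1a1, which carries aminoacyl-tRNA to the ribosome. In Tpt1, Eef1b2 and Naca the annotated start is an A or a G, so no run holds it. A run of at least 8 bases made only of C and T over the start was found in 6 of 17 translation genes with a window (35.3%), in 15 of 64 ribosomal protein genes (23.4%) and in 1031 of all 27025 genes (3.81%). A run at an annotated start is a description of the reference, and annotated starts can lie away from the start used in these cells.

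The low-RNA ribosome-rich cells made up 1.15% of CTRL cells that passed the gene and mitochondrial filters (106 of 9210, 0.943 to 1.39) and 10.5% of DHEA cells (1228 of 11671, 9.97 to 11.1). The libraries differed most in how many shallow cells they held. Among cells of any depth with Cd8 and Cd3 UMIs and without the 4 cytotoxic genes, 2.66% of CTRL cells (228 of 8582) and 17.4% of DHEA cells (1766 of 10129) had fewer than 2000 UMIs. Of those shallow cells, 46.5% in CTRL (39.9 to 53.2) and 69.5% in DHEA (67.3 to 71.7) were ribosome-rich, against 75.2% and 79.2% of the deeper ones. These shares are set by the depth limit of the rule, and the DHEA library was the shallower, so the part of depth in the gap was not tested.

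**Figure D1:**
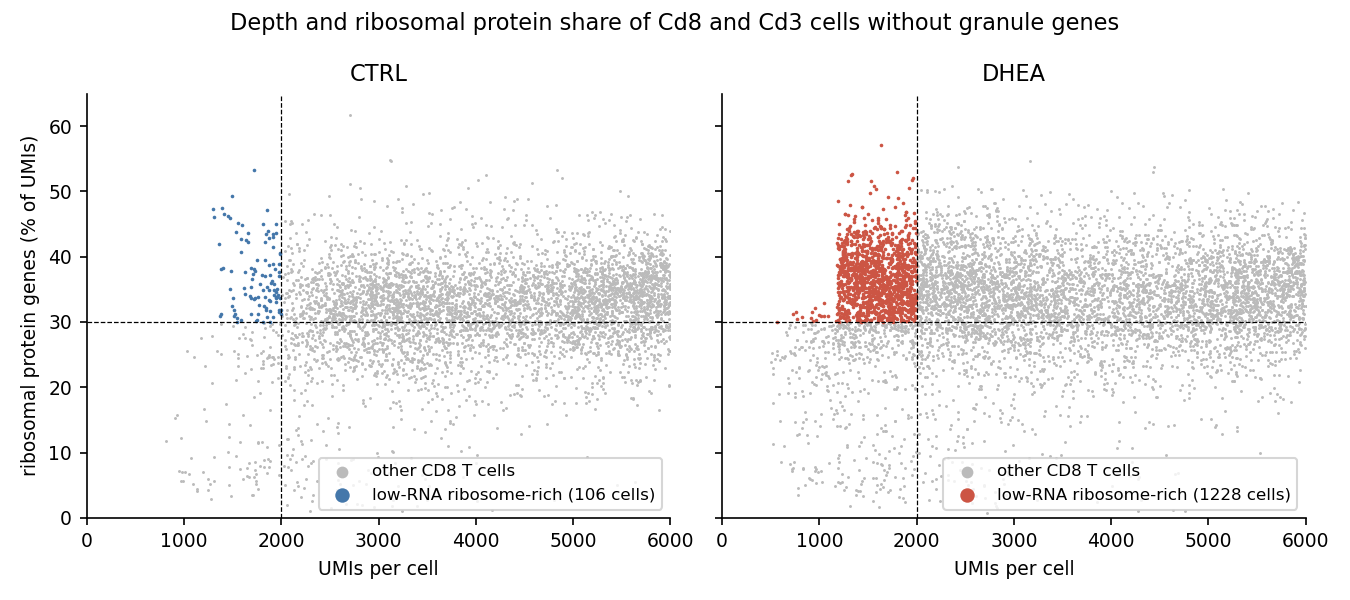
UMIs per cell (x) against the percentage of UMIs from ribosomal protein genes (y) for cells with Cd8 and Cd3 UMIs and without Gzma, Gzmb, Gzmk or Klrg1, 1 point per cell and 1 panel per library. Coloured points are the 106 CTRL and 1228 DHEA low-RNA ribosome-rich cells, dashed lines are the limits of the rule, and grey points continue the coloured field to the right with no gap.

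The cells sat against a lower edge in depth that differed between the libraries. In DHEA, barcodes of any kind numbered 135 at 1100 to under 1200 UMIs and 299 at 1200 to under 1300, and the ribosome-rich CD8 cells among them 24 and 146. From 1200 to under 2000 UMIs each bin of 100 held between 140 and 161 ribosome-rich DHEA cells. In CTRL the first ribosome-rich cells appeared at 1300 to under 1400 UMIs, where there were 7, and the number reached 29 at 1900 to under 2000. Below 1200 UMIs there were 0 ribosome-rich cells among 18 CTRL cells, with an interval of 0 to 18.5%, and 39 among 217 DHEA cells (18.0%).

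A comparison within one depth range, added after these counts were seen, leaves out the DHEA step at 1200 UMIs. It does not remove the difference in edge. CTRL counts still climbed within it, from 8 ribosome-rich cells at 1400 to under 1500 UMIs to 29 at 1900 to under 2000. From 1400 to under 2000 UMIs, 52.4% of CTRL cells (99 of 189, 45.0 to 59.7) and 77.6% of DHEA cells (903 of 1163, 75.1 to 80) were ribosome-rich. The ribosome-rich cells of that range made up 1.15% of all CTRL and 8.92% of all DHEA cells with Cd8 and Cd3 UMIs and without the cytotoxic genes. In another setting the upper limit was 0.4 of the median depth of each library's filtered cells. That median was 5530.5 UMIs in CTRL and 4224 in DHEA, and the limit was 2212 and 1690 UMIs. The share of filtered cells was then 1.91% in CTRL and 6.57% in DHEA.

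**Figure D2:**
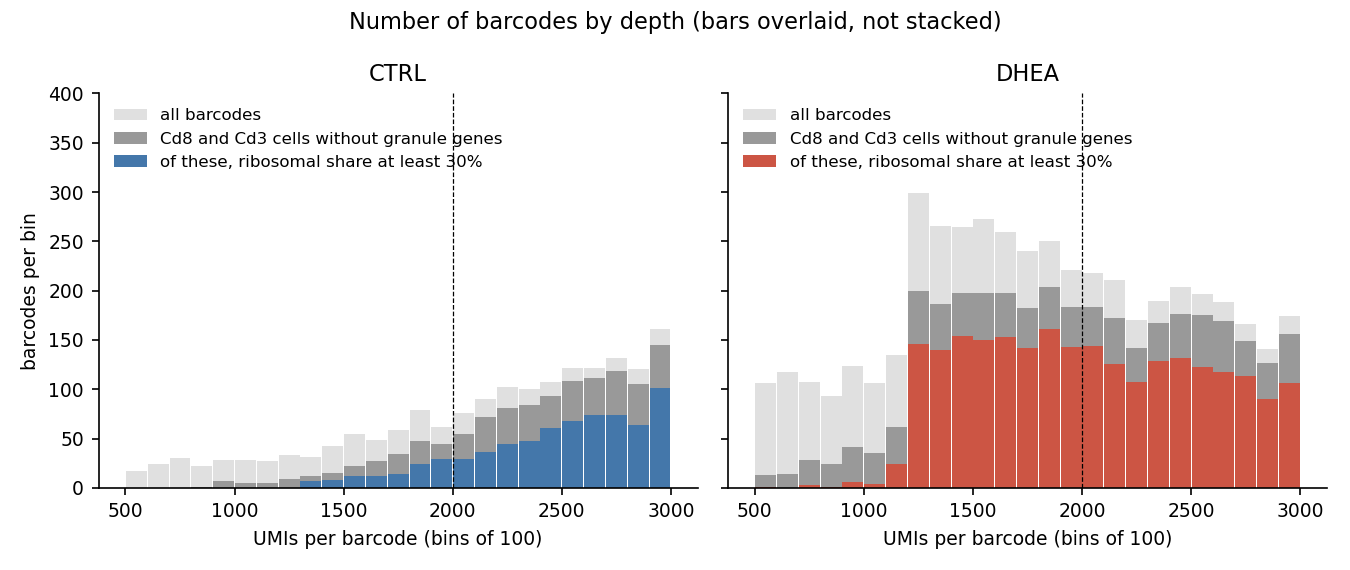
Number of barcodes (y) by UMIs per barcode in bins of 100 (x), 1 panel per library. Light bars are all barcodes, grey bars those with Cd8 and Cd3 UMIs and without cytotoxic genes, and coloured bars the ribosome-rich ones among them. The DHEA counts step up from 24 to 146 ribosome-rich cells at 1200 UMIs, while the CTRL counts climb slowly from 1300 UMIs.

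The cells did not stand apart from their neighbours at either limit. Just inside the depth limit, at 1900 to under 2000 UMIs, there were 29 CTRL and 143 DHEA cells with a median of 927 and 924 genes, and just outside it, at 2000 to under 2100 UMIs, 29 and 144 with 961 and 953. Just inside the ribosomal limit, from 30% to under 31%, were 11 CTRL and 87 DHEA shallow cells, and just outside it, from 29%, were 8 and 82. The label therefore names a range of depth and ribosomal share, with no gap on either side.

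Within their range the cells had a median of 1805.5 UMIs and 849 genes in CTRL and of 1589.5 UMIs and 776.5 genes in DHEA. The ribosomal protein share, a quantity of the rule, had a median of 35.8% in CTRL and 36.3% in DHEA, close to the 35.4% and 36.0% of ribosome-rich cells with 2000 UMIs or more (the deeper cells below, 6279 in CTRL and 6623 in DHEA). Shallow cells under the ribosomal limit, called ribosome-poor below (122 and 538), had medians of 16.6% and 25.2%. Mitochondrially encoded genes gave a median of 2.58% of UMIs in CTRL and 1.65% in DHEA low-RNA ribosome-rich cells, 2.49% and 2.00% in deeper cells, and 4.64% and 2.70% in ribosome-poor cells. After every cell was thinned to 500 UMIs, low-RNA ribosome-rich cells showed a median of 326 genes in each library, deeper cells 334 and 332, and ribosome-poor cells 374 and 364. At equal depth the cells had nearly the gene count of deeper ribosome-rich cells, and fewer genes than shallow ribosome-poor cells. The rule split these classes by ribosomal share, which limits the UMIs left for other genes. This order is therefore a description and no independent result.

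Among themselves the cells differed along the ribosomal share. From 30 to under 35% lay 48 CTRL and 465 DHEA cells, from 35 to under 40% lay 28 and 500, and from 40% lay 30 and 263. In DHEA, Malat1 stood at 12949, 10024 and 7466 CPM over these ranges and Actb at 8911, 8025 and 7000, so both were lower where the ribosomal share was higher. In CTRL, Malat1 stood at 9296, 7670 and 11800 CPM and did not follow one direction. Ccl5 was at 1141, 839 and 722 CPM in DHEA and at 141, 241 and 555 in CTRL, opposite orders in the 2 libraries. The median mitochondrial share was 1.95, 1.61 and 1.32% in DHEA and 2.94, 2.95 and 1.79% in CTRL. The ribosomal share is a quantity of the rule, and these values are given as a description.

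Identity genes were those of CD8 T cells. Levels are given as CPM, UMIs of a gene per 1000000 summed UMIs of a class of cells in a library. Cd8b1, the beta chain of the CD8 co-receptor, was at 1469 CPM in CTRL and 1506 in DHEA low-RNA ribosome-rich cells. Its chain partner Cd8a was at 319 and 550 CPM, but a UMI of either was a condition for entry. Ccr7, the chemokine receptor that brings naive cells into lymphoid tissue, was at 254 CPM in CTRL and 377 in DHEA, against 230.0 and 265 in deeper cells. In thinned cells, Ccr7 was seen in 10.4% of CTRL (5.3 to 17.8) and 15.1% of DHEA (13.1 to 17.2) low-RNA ribosome-rich cells. Effector cells with at least 2 UMIs of the cytotoxic genes, taken as a class low in Ccr7, showed it in 0 of 37 CTRL cells (0 to 9.49%) and in 1.04% of 288 DHEA cells (0.215 to 3.01) at the same thinned depth, from median depths of 6731 and 4177 UMIs. The DHEA intervals did not overlap, and the CTRL intervals did. Before thinning, Ccr7 was seen in 34.0% of CTRL and 39.5% of DHEA low-RNA ribosome-rich cells and in 37.8% and 16.7% of the deeper-sequenced effector cells, so that class does not lack the gene and is no clean background. Klf2 was seen in 29.2% of CTRL and 40.5% of DHEA thinned cells and in 24.5% and 35.6% of deeper ones. Effector cells showed Klf2 in 35.1% and 41.0%, so a Klf2 UMI does not set the cells apart from them.

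Most markers of other cell types had few or no UMIs, and each list also had genes that were seen. The B cell genes Ms4a1 and Pax5 were at 0 UMIs in both libraries' low-RNA ribosome-rich cells, as were Cd4 of helper T cells and Csf1r of macrophages. Cd79b of the B list had 4 UMIs in CTRL and 31 in DHEA. In the helper and regulatory T list Ctla4 had 3 and 69 and Ikzf2 2 and 69. In the natural killer and innate list Eomes had 1 and 68 and Gata3 8 and 48. Other genes of that list were at 0 in CTRL and seen in DHEA, among them Klre1 with 47 UMIs, Klra7 with 31, Trdc with 16 and Klra8 with 9. Of the B and plasma cell list, 14 of 17 genes were at 0 in CTRL and 8 in DHEA, and Ighm, an immunoglobulin heavy chain gene, gave 63 of its 69 UMIs in CTRL and 648 of 696 in DHEA. The B list summed to 373 CPM in CTRL and 357 in DHEA, against 271 and 298 in deeper cells. Of the myeloid list, 16 of 18 genes were at 0 in CTRL and 11 in DHEA, and the rest was almost all Cst3 and Ctss. The natural killer and innate list summed to 48.6 CPM in CTRL and 116 in DHEA, against 90.5 and 136 in deeper cells. Ncr1 was at 0 UMIs in low-RNA ribosome-rich cells of both libraries. The helper and regulatory T list summed to 59.4 and 103 CPM and the erythroid and platelet list to 10.8 and 5.65 CPM. After thinning, a UMI of any B list gene was seen in 22.6% of CTRL low-RNA ribosome-rich cells (15.1 to 31.8) against 13.1% of deeper cells, and in 14.7% against 14.1% in DHEA. For the myeloid list the shares were 14.2% (8.14 to 22.3) against 9.95% in CTRL, and 10.9% against 10.3% in DHEA. The part of such RNA in the results below was not tested.

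The 2 libraries shared 51 barcodes, of which 1 in CTRL and 5 in DHEA were low-RNA ribosome-rich, and 0 were so in both. UMIs of beta chain V segments of the T cell receptor were few, 9 in CTRL over 7 segments and 67 in DHEA over 18. The most frequent segment in DHEA, Trbv12-2, gave 19.4% of them and 17.8% of those in deeper cells.

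Against deeper ribosome-rich cells, the transcript mix of low-RNA ribosome-rich cells changed little. Genes with a mean of at least 50 CPM were measured, 2741 in all, and a gene was counted when its CPM differed at least 1.5-fold in the same direction in both libraries. By that rule of size 10 genes were higher (0.365%) and 22 were lower (0.803%). The median log2 ratio over all measured genes was -0.03 in CTRL and -0.03 in DHEA. Within single libraries 112 genes were higher and 259 lower in CTRL, where the class summed to 185207 UMIs, and 12 and 138 in DHEA, where it summed to 1946883. With the scaling factors of the TMM method (trimmed mean of M values, a normalization less driven by a few abundant genes) the counts were 8 and 33, and the CTRL median moved to -0.15.

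Ranked by the smaller ratio of the 2 libraries, the highest gene was Cmss1, named as the homologue of a yeast protein tied to the small ribosomal subunit. Its level was 10113 CPM in CTRL and 6545 in DHEA low-RNA ribosome-rich cells, 4379 and 2969 in deeper cells, and 14259 and 9478 in ribosome-poor cells. The log2 ratio over deeper cells was 1.21 in CTRL (1.14 to 1.27) and 1.14 in DHEA (1.11 to 1.17). Counted per cell, the order against deeper cells turned. There were 17.7 UMIs of Cmss1 per low-RNA ribosome-rich cell and 26.3 per deeper cell in CTRL, and 10.4 and 16.3 in DHEA. So the Cmss1 count per cell was lower in the shallow cells by far less than the total was.

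Several genes shared that pattern. Gphn, which encodes the scaffold protein gephyrin, was at 2894 and 2740 CPM in low-RNA ribosome-rich cells of CTRL and DHEA, 1584 and 1366 in deeper and 7641 and 5686 in ribosome-poor cells. Lars2, the mitochondrial leucyl-tRNA synthetase, was 0.89 higher than in deeper cells on the log2 scale in CTRL and 0.84 in DHEA, Camk1d, a calcium-dependent kinase, 0.63 and 0.91, and Cdk8, the kinase of the Mediator complex, 0.95 and 0.76. Jarid2, a partner of Polycomb repressive complex 2, differed by 0.81 in CTRL and 1.5 in DHEA. All of these were higher still in ribosome-poor cells of both libraries. Filip1l (0.80 and 1.30) lies inside the span of Cmss1 on the opposite strand in the GENCODE vM21 annotation, so its reads may not be told apart from those of Cmss1. The other genes among the 10 were H1f4, a linker histone, Ldb1 and Gm2a, with 18, 21 and 12 CTRL UMIs.

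These levels moved along the whole depth range and not only at 2000 UMIs. In DHEA ribosome-rich cells Cmss1 was at 7368 CPM at 1000 to under 1500 UMIs, 6140 at 1500 to under 2000, 5148 at 2000 to under 3000, 3965 at 3000 to under 5000, 2565 at 5000 to under 10000 and 1759 above. In CTRL it was at 10468 CPM at 1500 to under 2000 UMIs and then 8253, 6232, 3982 and 2707, while the 15 cells below 1500 UMIs gave 7364. Gphn went in DHEA from 2984 CPM at 1000 to under 1500 UMIs to 771 at 10000 and more. Actb, the cytoplasmic actin, was at 7926 and 8248 CPM in the DHEA bins below 2000 UMIs and at 5040 at 5000 to under 10000.

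**Figure D3:**
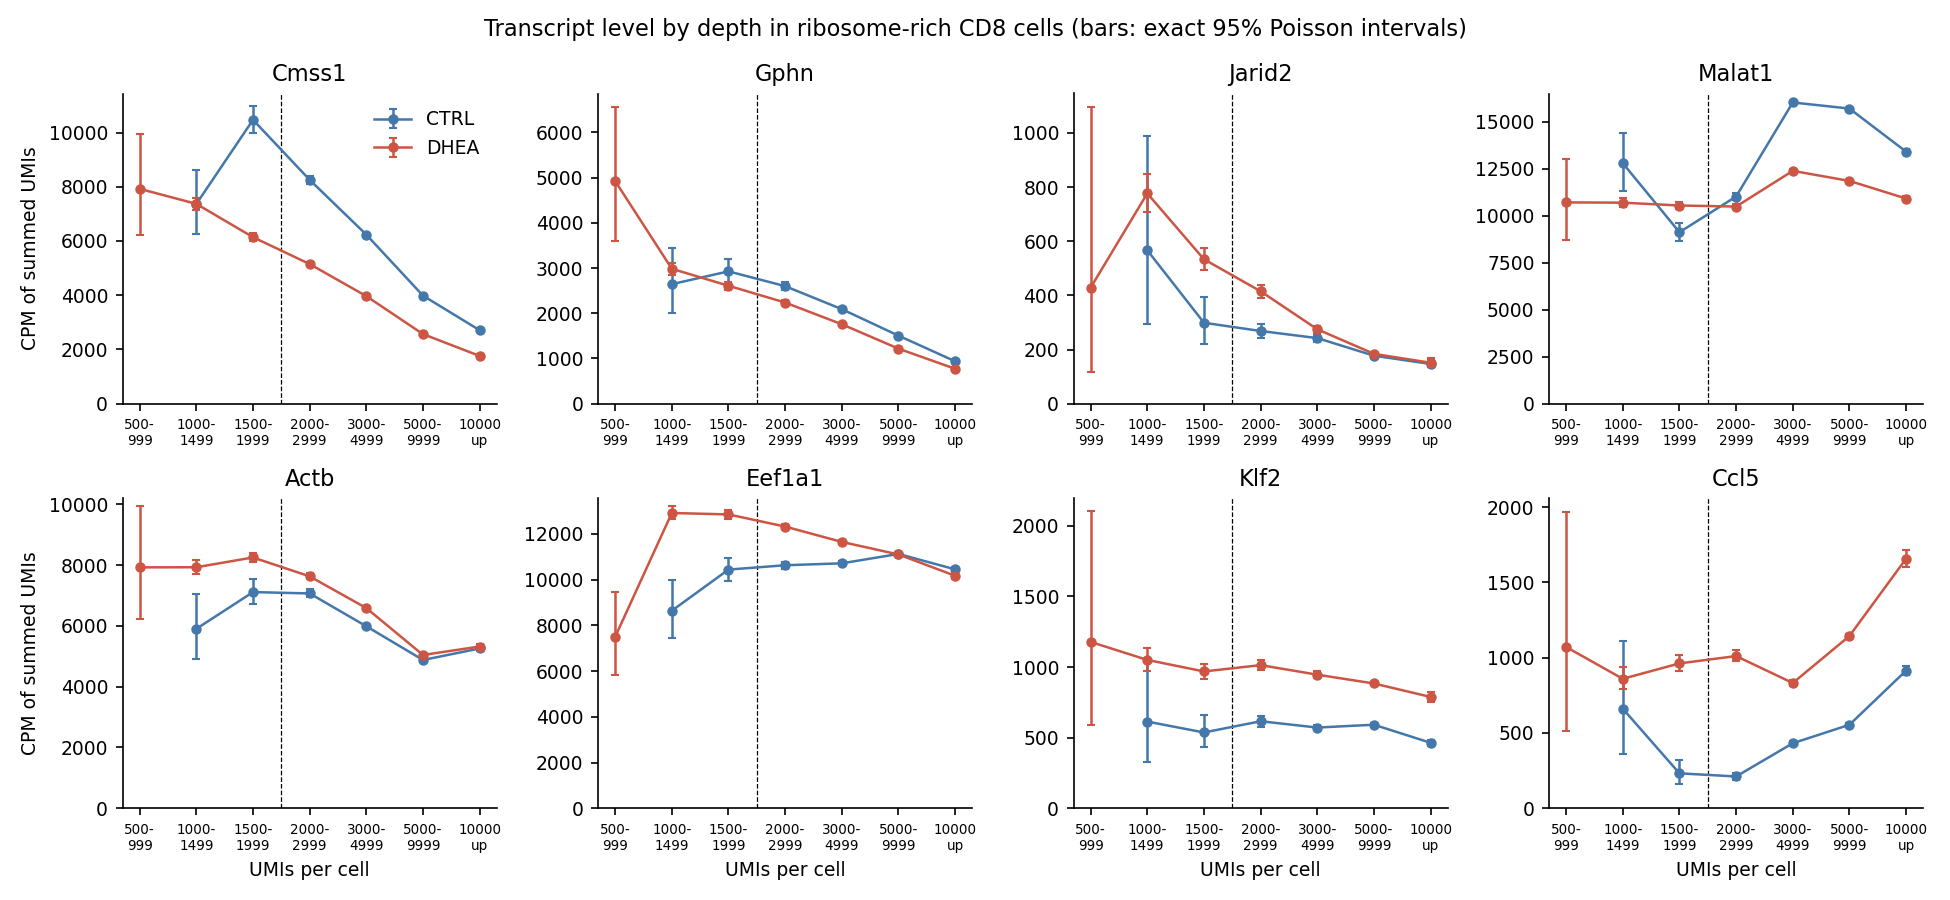
CPM of summed UMIs (y) for 8 genes in ribosome-rich CD8 cells by UMIs per cell (x), 1 line per library, with exact 95% Poisson intervals. Points left of the dashed line are low-RNA ribosome-rich cells (11 DHEA cells at 500 to under 1000 UMIs, 15 CTRL and 468 DHEA at 1000 to under 1500, 91 and 749 at 1500 to under 2000). Cmss1 and Gphn fall with depth in DHEA at every step, Malat1 is highest from 3000 to under 5000 UMIs in each library, and Ccl5 is lowest in CTRL from 1500 to under 3000 UMIs.

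Among the transcripts at lower levels, Malat1, a long non-coding RNA kept in nuclear speckles, was at 9541 CPM in CTRL and 10591 in DHEA low-RNA ribosome-rich cells, 15338 and 11774 in deeper cells, and 31242 and 24860 in ribosome-poor cells. Its log2 ratio over deeper cells was -0.68 in CTRL (-0.75 to -0.62) and -0.15 in DHEA (-0.17 to -0.13). Per cell, Malat1 gave 16.7 and 16.8 UMIs in low-RNA ribosome-rich cells of CTRL and DHEA, 92.1 and 64.6 in deeper cells, and 49.5 and 34.0 in ribosome-poor cells of about the same depth. Kcnq1ot1, an antisense non-coding RNA of the Kcnq1 locus, had log2 ratios over deeper cells of -0.73 in CTRL and -1.0 in DHEA. Sidt1, a transmembrane protein gene, fell from 499 CPM in deeper to 313 in low-RNA ribosome-rich CTRL cells and from 526 to 335 in DHEA. Among the other genes past 1.5-fold in both libraries were Myo1f, Il18r1, Malt1, Lncpint, Scaper, Rfx3, Atg4a and Ctla2a, each with 16 or fewer UMIs in CTRL. Of the list of nuclear-retained and long transcripts, 12 of 17 measured genes were lower than in deeper cells in both libraries. The list median was -0.17 in CTRL and -0.40 in DHEA. Another 4 were higher, among them Gphn, Lars2 and Camk1d past 1.5-fold. By any amount, 31.4% of all 2741 genes were lower and 22.8% higher in both. Of the list of immature or recently emigrated T cell genes 3 were measured, and 2 were lower in both libraries. Themis, which tunes receptor signals in developing thymocytes, was at -0.38 and -0.67 and Tox, a nuclear regulator, at -0.63 and -0.60, while Ccr9, a chemokine receptor of gut and thymus homing, was at 0.23 and -0.04.

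Translation genes stood near their level in deeper cells. Of the 25 outside the Rpl and Rps names, 7 were higher and 6 lower than in deeper cells in both libraries, and 0 passed 1.5-fold in both. Of all 2741 genes 22.8% were higher and 31.4% lower in both by any amount. Past 1.5-fold in both were 0.365% higher and 0.803% lower, so these counts do not mark the list. Their summed level was 45538 CPM in CTRL low-RNA ribosome-rich cells and 49839 in DHEA, against 46121 and 46637 in deeper and 24971 and 32436 in ribosome-poor cells. Tpt1, translationally controlled tumour protein, was at 12570 and 12343 CPM against 12375 and 11676 in deeper cells, and Fau at 6863 and 6976 against 6223 and 6646. Eef1a1, at 10232 CPM in CTRL and at 12845 in DHEA, had a log2 ratio over deeper cells of -0.10 and 0.19. Fau, Rack1 and Eef1a1, with the C and T run at the annotated start, and Tpt1, Eef1b2 and Naca, without a run there, all stood within 1.5-fold of deeper cells. The starts used in these cells were not measured, so the windows do not sort messages with a tract from messages without one.

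Single ribosomal protein genes kept their proportions, as far as the rule leaves this open. Of 87 measured genes with Rpl or Rps names, 27 were higher and 17 lower than in deeper cells in both libraries. Of all 2741 genes, 22.8% were higher and 31.4% lower in both by any amount. The only Rpl or Rps name past 1.5-fold, Rps6ka3, encodes a kinase that shares just the letters. Rpl4 (0.19 and 0.18), Rpl6 (0.13 and 0.22), Rps26 (0.11 and 0.28) and Rpl26 (0.11 and 0.11) had the largest log2 ratios common to CTRL and DHEA, and Rps12 had -0.10 and -0.13. Pseudogene copies such as Rpl10-ps3 share sequence with their parents, and no source used here states how reads were divided among them.

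Other housekeeping groups differed by little. The counts below take any amount, by which 22.8% of all 2741 genes were higher and 31.4% lower in both libraries. Actin and migration genes were higher than in deeper cells in both libraries for 14 of 25, led by Actb at 0.43 and 0.56. The median of this list in CTRL was 0.07 and became -0.06 with TMM factors. MHC class I and peptide loading genes were higher in both for 12 of 19, and their CTRL median of 0.04 became -0.08 with TMM factors. Nuclear-encoded subunits of oxidative phosphorylation had medians of 0.13 in CTRL and -0.03 in DHEA over 40 genes, and mitochondrially encoded genes 0.17 and -0.06 over 12. Apoptosis and p53 genes were mostly too low to measure, and of the 6 measured 3 were higher and 1 lower in both.

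Against shallow cells that are poor in ribosomal transcripts, the difference was wide. Of the same 2741 genes, 137 (5.0%) were at least 1.5-fold higher and 737 (26.9%) lower in low-RNA ribosome-rich cells of both libraries. The rule split these classes by ribosomal share, so these values are a description and no independent result. The median log2 ratio over all measured genes was -0.32 in CTRL and -0.28 in DHEA. All 17 nuclear-retained and long transcripts were lower by at least 1.5-fold in both libraries (medians -1.18 and -1.16), and all 12 mitochondrially encoded genes were lower in both (-0.77 and -0.89). In the other direction, 35 of 40 nuclear oxidative phosphorylation genes (0.71 and 0.37) and 20 of 25 translation genes outside the rule (0.75 and 0.55) were higher in both. Apart from that of the 17 nuclear-retained transcripts, these list counts take any amount. By any amount, 28.5% of all 2741 genes were higher and 53.8% lower in both. Naive and quiescence genes had medians of -0.45 and -0.29, near that of all genes.

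**Figure D4:**
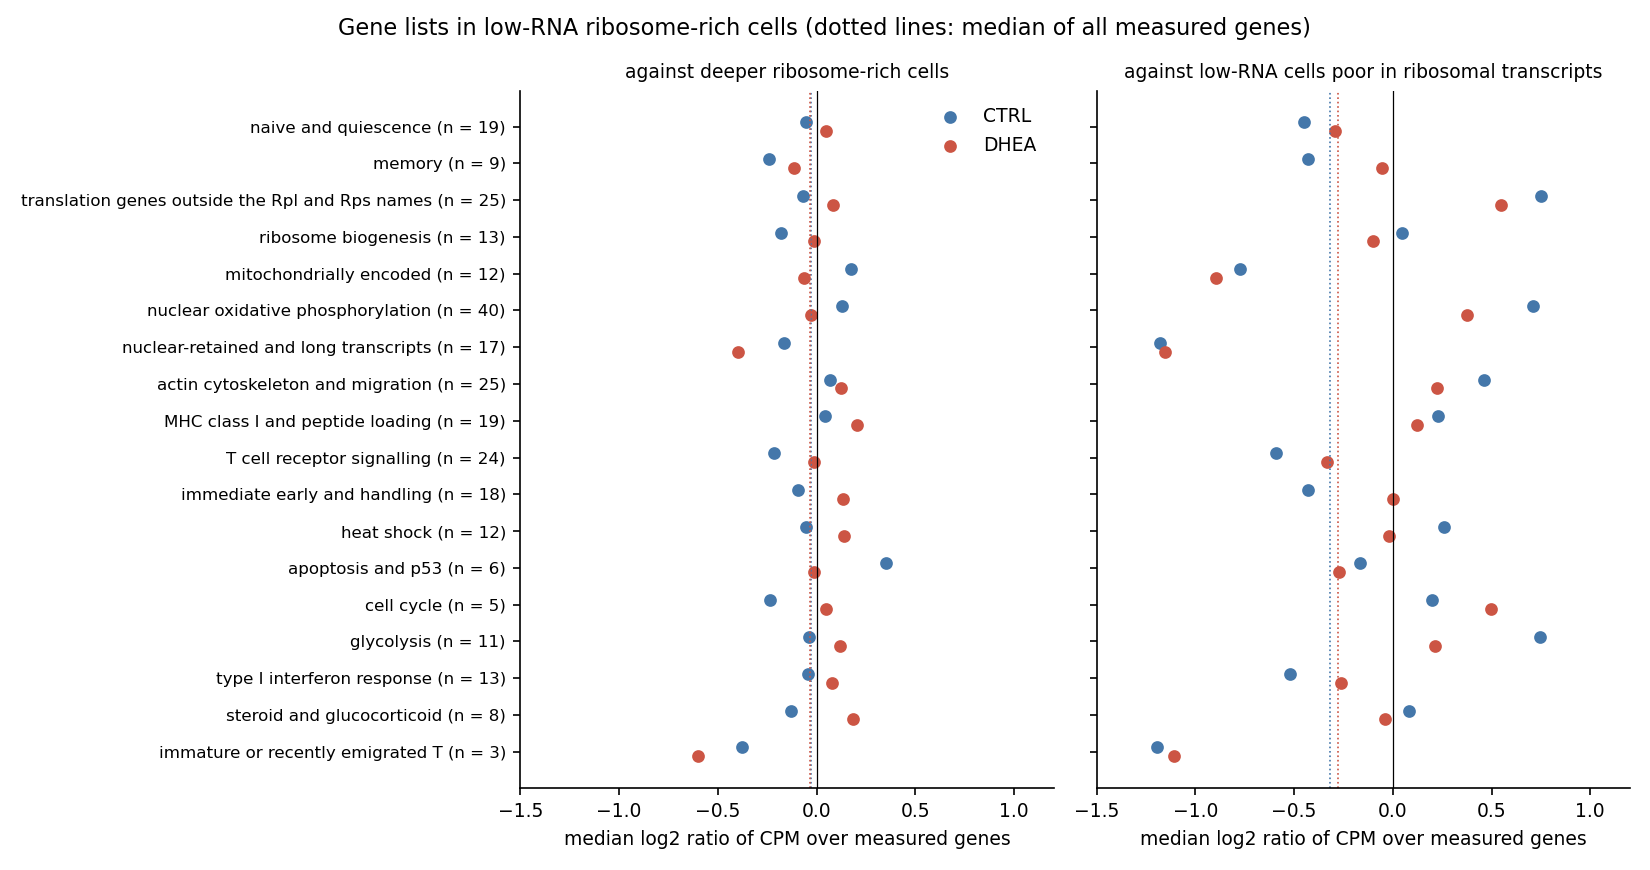
Median log2 ratio of CPM (x) over the measured genes of 18 lists (y), in low-RNA ribosome-rich cells against deeper ribosome-rich cells (left) and against low-RNA cells poor in ribosomal transcripts (right), 1 point per library, with dotted lines at the median of all measured genes. Points on the left lie between -0.60 and 0.35, and on the right nuclear-retained transcripts sit at -1.18 and -1.16 while translation genes sit at 0.75 and 0.55.

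Naive genes had nearly the same summed level in low-RNA ribosome-rich and deeper cells. The list of 20 naive and quiescence genes summed to 8590 CPM in CTRL and 8761 in DHEA, against 8581 and 8654 in deeper cells, and 0 of the 19 measured genes passed 1.5-fold in both libraries, near the 0.365% and 0.803% of all genes.

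Memory genes differed between the libraries. A UMI of Ccl5, Cxcr3, Il2rb or Ly6c2 was found in 9.4% of thinned CTRL cells (4.6 to 16.7), under the 21.3% of deeper CTRL cells (20.3 to 22.4). In DHEA it was found in 37.9% (35.2 to 40.7), beside 39.5% of deeper cells (38.3 to 40.7). No cell class here should lack these genes, so the share that free RNA gives was not measured. Ccl5, a chemokine of antigen-experienced and memory-like cells, was at 281 CPM in CTRL low-RNA ribosome-rich cells and 556 in deeper ones, and at 929 and 1110 in DHEA. The low CTRL level did not end at the depth limit, since Ccl5 was at 211 CPM in CTRL cells of 2000 to under 3000 UMIs, and it was at 661 CPM in the 15 CTRL cells under 1500 UMIs. Ly6c2, a surface protein that rises on memory-like cells, was at 146 and 308 CPM in CTRL and at 561 and 545 in DHEA. Ly6c2 shares much of its sequence with Ly6c1, so its counts are uncertain. None of the 9 measured memory genes was higher than in deeper cells in both libraries, and 5 were lower in both. Of all 2741 genes, 22.8% were higher and 31.4% lower in both by any amount.

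Between the libraries, the comparison of DHEA with CTRL low-RNA ribosome-rich cells was limited by the 106 CTRL cells. The genes measured were the 2838 whose UMIs in the 2 libraries came to 100 or more, and the median gene had 17 UMIs in CTRL and 170 in DHEA. At least 1.5-fold higher in DHEA were 394 genes (13.9%), and at least 1.5-fold lower 283 (9.97%). With TMM factors the split was 532 higher and 206 lower. In deeper cells the same genes gave 19 higher and 7 lower, with a median of 3538 UMIs per gene in CTRL. These values cannot be told apart from any other difference between 2 libraries, and the median depth, the lower edge of depth and the mitochondrial share given above differed between the same cells. The median log2 ratio was 0.04 in low-RNA ribosome-rich cells and 0.01 in deeper cells.

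Memory and heat shock genes were among the higher ones. Over all 2838 genes, 52.9% were higher in DHEA by any amount and 13.9% were past 1.5-fold higher. Ly6c2 was at 146 CPM in CTRL and 561 in DHEA, a log2 ratio of 1.94 (1.39 to 2.55), against 0.83 in deeper cells. Ccl5 had 1.73 (1.33 to 2.15), against 1.00. The ratios of these genes were 2.07 and 1.83 when only cells of 1400 UMIs or more were used, and 0.68 and 0.38 among cells under 1500 UMIs, of which CTRL has 15. Of 9 memory genes 8 were higher and 4 passed 1.5-fold, with a median of 0.50 against 0.31 for the same genes in deeper cells, while Itga4, an integrin chain, was at -0.95 (-1.36 to -0.52). With the ribosomal limit raised to 35% (58 CTRL cells) the ratios were 1.37 for Ly6c2, 1.00 for Ccl5 and 0.07 for Itga4, and Itga4 was at 0.30 among cells under 1500 UMIs. Hspa1b, an inducible heat shock protein 70 gene, had 9 UMIs in CTRL and 435 in DHEA, a log2 ratio of 2.20 (1.26 to 3.34) beside 1.86 in deeper cells. Its near-identical copy Hspa1a had 3 and 211 UMIs and 2.74 (1.18 to 5.03), and reads of the pair may have been split between them. All 12 measured heat shock genes were higher in DHEA, 5 of them past 1.5-fold, with a median of 0.51 and of 0.43 in deeper cells. Immediate early genes, which also respond to tissue handling, were higher for 15 of 18, with a median of 0.28 and of 0.04 in deeper cells, and the part of handling was not tested.

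Among naive, receptor and activation genes, Klf2, the transcription factor that keeps T cells quiescent and recirculating, was at 545 CPM in CTRL and 996 in DHEA, a log2 ratio of 0.87 (0.58 to 1.17) beside 0.64 in deeper cells. Ccr7 had 0.57 (0.14 to 1.03) beside 0.20. Trac, the constant region of the T cell receptor alpha chain, was at 599 and 1027 CPM (0.78, interval 0.50 to 1.07), beside 0.28. It was named for its size, and the T cell receptor signalling list had a median of 0.09 over 24 genes, with 16 higher and 5 past 1.5-fold. Over all 2838 genes, 52.9% were higher by any amount, 13.9% past 1.5-fold higher and 9.97% past 1.5-fold lower. Of the 20 naive and quiescence genes 11 were higher, Klf2 past 1.5-fold, and Foxp1 and Bach2, transcription factors of the quiescent state, were past 1.5-fold lower at -0.76 (-0.97 to -0.54) and -0.64 (-0.98 to -0.28). Bach2 was at 0.50 among cells under 1500 UMIs. Cd69, an early activation marker, had 29 UMIs in CTRL and 599 in DHEA (0.97, 0.44 to 1.57), against 0.22 in deeper cells. H2az1, a histone variant gene, had 1.01 (0.58 to 1.48), while Mki67, the proliferation marker, had 0 and 4 UMIs.

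Mitochondrially encoded genes were all lower in DHEA low-RNA ribosome-rich cells. Of 12 measured, 6 passed 1.5-fold lower, where 9.97% of all genes did, with a median of -0.59 against -0.31 for the same genes in deeper cells. mt-Atp8 was at 232 CPM in CTRL and 77.6 in DHEA, a log2 ratio of -1.58 (-2.08 to -1.06). mt-Nd3 had -1.04 (-1.36 to -0.71) and mt-Nd5 -0.80 (-1.11 to -0.48). The mitochondrial share was capped by the rule in both libraries. Of 17 nuclear-retained and long transcripts 4 were higher, where 52.9% of all genes were, and 4 were past 1.5-fold lower. Their median was -0.30, and -0.19 in deeper cells. Among them Dock2, a regulator of lymphocyte migration, was at -0.79 (-1.05 to -0.52), and at 0.20 among cells under 1500 UMIs. Cdk8 was at -0.82 (-1.04 to -0.58). Cmss1 was lower at -0.63 (-0.70 to -0.56), close to its -0.56 in deeper cells, and Malat1 had 0.15 (0.08 to 0.22) where deeper cells had -0.38. Among cells under 1500 UMIs the ratio was near 0 for Cmss1 and -0.26 for Malat1.

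**Figure D5:**
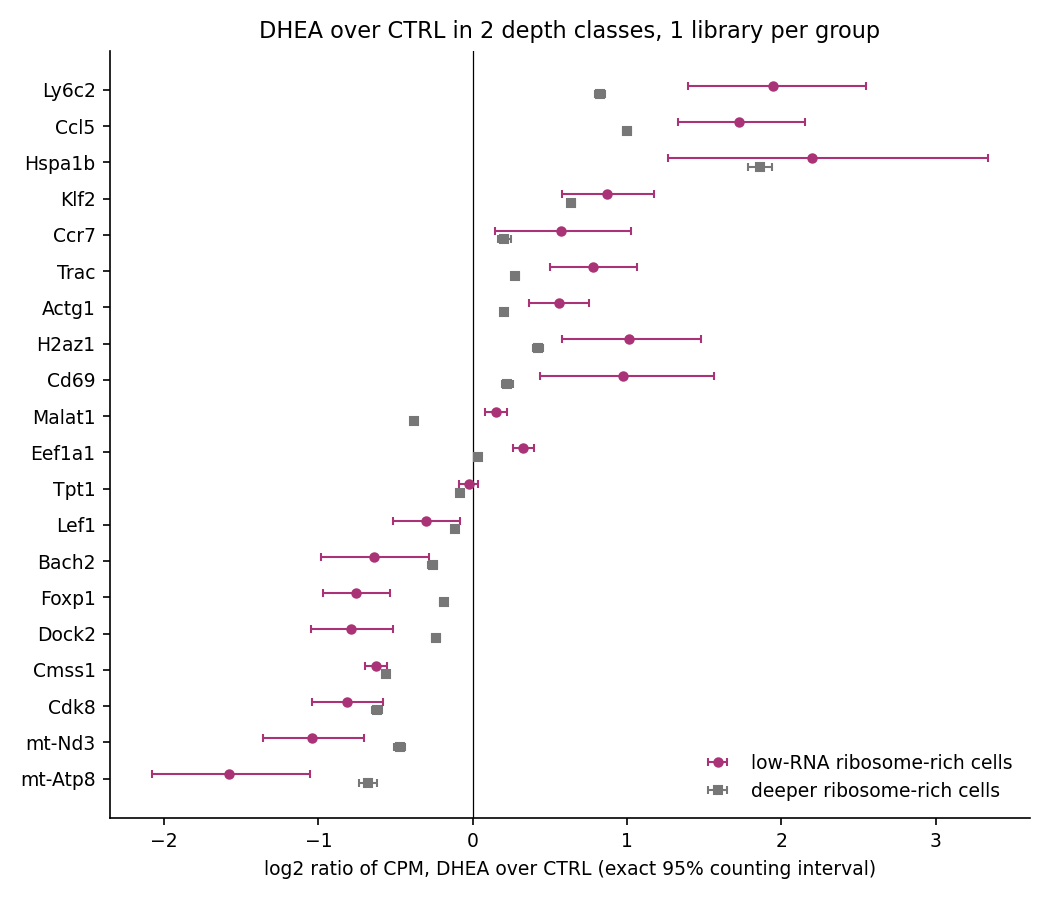
Log2 ratio of CPM, DHEA over CTRL (x), for 20 genes (y) in low-RNA ribosome-rich cells (circles) and in deeper ribosome-rich cells (squares), with exact 95% counting intervals and 1 library per group. Ly6c2, at 1.94 against 0.83, and Ccl5, at 1.73 against 1.00, lie farther from 0 in the low-RNA cells, and mt-Atp8 lies at -1.58 against -0.68.

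The genes at the ends of the ranking rested on few CTRL UMIs. After Hspa1a, the highest were St3gal6, Ly6a, Dnajc2, Me2, Ppp3cb, Tmem128 and Mrto4, each with 2 or 3 UMIs in CTRL, and St3gal6 for example had a log2 ratio of 2.58 with an interval of 0.70 to 5.64. The lowest were Wwox (28 and 111 UMIs, -1.41, -2.02 to -0.75), Tcof1, Smarca4, Airn, Flna, Lrba, Ankrd17 and Ranbp2, with 20 to 37 UMIs in CTRL. In deeper cells their log2 ratios were between -0.45 and -0.11. Eps8l1, which encodes a protein of the actin-regulating Eps8 family, had 8 UMIs among the 185207 of CTRL and 0 among the 1946883 of DHEA, a log2 ratio of -4.81 with DHEA put at 3 UMIs and an exact interval that reaches up to -4.17. In deeper cells it had 716 and 47 UMIs.

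By any amount, 52.9% of all 2838 genes were higher in DHEA, and 13.9% were past 1.5-fold higher and 9.97% past 1.5-fold lower. Of the remaining groups, ribosome biogenesis genes were higher in DHEA for 11 of 14 measured (median 0.38, and 0.10 in deeper cells) and genes of the steroid and glucocorticoid list for 8 of 9 (0.33 and 0.01). Sgk1, a glucocorticoid-induced kinase in that list, had 3 UMIs in CTRL and 135 in DHEA. Glycolysis genes were higher for 8 of 11 (0.33 and 0.12), with Pkm, which encodes pyruvate kinase, at 1.29 (0.53 to 2.18). Interferon response genes were higher for 5 of 13, with a median of -0.07 that became 0.02 with TMM factors. Translation genes outside the Rpl and Rps names were higher for 18 of 25, with a median of 0.11, 4 of them past 1.5-fold higher and 0 past 1.5-fold lower.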

How the data were processed

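The authors deposited a filtered count matrix (whole-number UMI counts per gene and barcode) for each library, made with 10x Genomics 3′ chemistry; Cell Ranger 8.0.1, Seurat 4.3.0 and the mm39 build are named per the submitters' processing notes. No source used here gives the rule that kept barcodes or the use of strand in counting. Members and gene lists were chosen with earlier results of these data known. Total UMIs were 51638782 in CTRL and 53020893 in DHEA.

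Counts were summed over the cells of each class and divided by the class total to give CPM. Ratios are log2 ratios of CPM with exact binomial intervals, levels have exact Poisson intervals and shares Clopper-Pearson intervals, at 95%. A class at 0 was put at 3 UMIs. Genes needed 100 UMIs for DHEA over CTRL and a mean of 50 CPM for the other ratios. To compare shares of cells, each cell was thinned to 500 UMIs. With 1 library per group there was no test across samples. Genes named are the 10 with the largest ratios in each direction for members over deeper cells in both libraries, the 8 at each end for DHEA over CTRL, up to 4 genes of each list with the largest ratio, and a fixed panel. No doublet caller was run. Gene overlaps came from GENCODE vM21 and start windows from RefSeq, both on GRCm38, and were joined by gene name only. Simulated counts held counting error only, with 200 genes changed 3-fold. For DHEA over CTRL (2756 genes) the changed genes had at least 200 expected UMIs, and the 1.5-fold rule called 85% of them. That share does not cover genes near the minimum of 100 UMIs. Of unchanged genes 12.7% also passed, both directions together, so a count of both directions near that share says little. For members over deeper cells in both libraries, the changed genes had a level of at least 100 CPM before the change. There 100% of changed and 0% of unchanged genes passed. The 100% does not cover genes near the minimum of 50 CPM. Alternatives are given in the closing section. Python 3.11.15, numpy 2.4.6, scipy 1.17.1, pandas 2.3.3, matplotlib 3.10.9, R 4.3.3 and edgeR 4.0.16 (TMM factors only) were used. Items withheld from this text are not reported here.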

Additional observations from a re-analysis of the deposited data

How the results depend on the processing

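No paired analysis was possible because each group has 1 library. The share of low-RNA ribosome-rich cells was higher in DHEA under every setting run, with a difference of 9.37 percentage points as reported. The difference was 3.94 with the upper limit at under 1500 UMIs, 12.5 at under 2500, and 11.4 and 5.91 with the ribosomal limit at 25% and 35%. It was 10.4 without requiring Cd8 and Cd3, and 10.9 over Cd8 and Cd3 cells without cytotoxic genes. With limits at 0.4 of the median of each library's filtered cells it was 4.66. Settings chosen after seeing the data gave 6.66 from 1400 UMIs and 25.3 among cells of that range. Genes past 1.5-fold were 394 higher and 283 lower in DHEA, and 10 higher and 22 lower than in deeper cells. Without a filter they were 1778, 2094, 225 and 165. With 3 times the minimum the first pair were 71 and 41, and 2 were lower than in deeper cells. With the upper limit at under 1500 UMIs they were 195, 90, 16 and 58. The ribosomal limit of 35% left 119 lower in DHEA and 53 lower than in deeper cells. That last count was 13 with cells weighted equally, 14 without requiring Cd8 and Cd3, and 65 against deeper cells of any ribosomal share. Of 569 list medians, 552 moved by less than their error and 17 by more. A change of sign was counted only for values at least 1.5-fold from no difference. Few list medians are that large, so the 0 counted among them says little. Smaller ones did change sign, such as the actin, MHC class I and interferon medians given above with TMM factors. Of 4038 single-gene values, 3786 moved by less than their error and 234 by more. The upper limit at under 1500 UMIs gave 129 of the 234 and the ribosomal limit of 35% gave 41. A further 18 values reversed, counted under the same condition on size. Itga4, DHEA over CTRL, became 0.074 at 35%. The others came with that limit of 1500 UMIs, which leaves 15 CTRL cells. DHEA over CTRL became -0.10 for St3gal6, 0.22 for Wwox, 0.50 for Bach2, 0.30 for Itga4, -1.14 for Cxcr3, 0.30 for mt-Nd4l, 0.20 for Dock2 and -0.64 for Cd6, and the value for Cmss1, DHEA over CTRL in members, became 0.00233. In CTRL, the ratio over deeper cells became -0.018 for Lars2, 0.56 for Malt1, 0.034 for Ctla2a, 0.10 for Ly6c2, 0.25 for Ccl5, 0.29 for Nop58, 0.49 for Cd6 and 0.038 for Tox. Fewer cells were used there, and no other cause was tested. Few CTRL cells limit the DHEA over CTRL ratios, with a median of 17 UMIs per gene in CTRL.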
